A study of Mus musculus with 20 samples.

Results

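The difference between night and day in the hypothalamus of mice lacking Magel2 and Ndn was set against the same difference in wild-type mice, gene by gene. The value is an interaction, (KO night minus KO day) minus (WT night minus WT day), so it is above 0 where the night-to-day ratio of a gene was higher in the deletion than in wild type. All 20 libraries of the series enter it, 5 in each of 4 groups, assigned by the letters of their titles for genotype and time, and 22181 of 53801 genes had enough reads to be tested. With edgeR, no gene passed a Benjamini-Hochberg adjusted p under 0.05 (0 of 22181, 0% of genes), although the smallest adjusted p was 0.0543 and 4910 genes (22.1%) had an unadjusted p under 0.05. Lists of glucocorticoid-induced, immediate early, unfolded protein response, respiratory chain and ribosomal protein genes had medians above 0, and genes spanning over 300 kb had a median below 0.

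WT is C57BL/6J. KO is a mouse with both Necdin (Ndn) and Magel2 deleted, called MADIN and double ko in the series text and written magel2/necdin knokdown in the genotype label. All animals were on a light-dark cycle with food and water freely available, and were killed 6 hours (day) or 18 hours (night) after lights on, that is in the light and in the dark phase. The sources give no age and do not say whether each library is 1 animal, so p-values measure the spread between these libraries, and with only 2 times a shift in phase and a change in amplitude cannot be told apart. In whole tissue, fewer cells of a type and less RNA per cell cannot be told apart either.

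Magel2 and Ndn are neighbouring imprinted genes of the Prader-Willi region, expressed from the paternal copy and abundant in hypothalamic neurons. MAGEL2 works with a ubiquitin ligase in the recycling of membrane proteins from endosomes, and the hypothalamus holds both the suprachiasmatic nucleus, which is the central circadian clock, and the neurons that drive the daily rhythm of glucocorticoid release. Genes downstream of the clock, of glucocorticoids and of neuronal activity are therefore the usual readouts of time of day in this tissue, and in nocturnal mice the dark phase is the phase of feeding and activity.

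The deleted genes were read first. Ndn (chr7:62346569-62350262, plus strand) had 248, 274, 31, 269 and 260 CPM in WT day, 260, 267, 239, 346 and 298 CPM in WT night, 0.726, 0.444, 0.746, 0.248 and 0.475 CPM in KO day and 0.373, 0.596, 1.01, 0.69 and 0.365 CPM in KO night (CPM, counts per 1000000 counts of the tested genes, after TMM scaling). The library labelled WT_day 3 stood at 31 CPM, 11.3% of the mean of 273 CPM in the other 9 WT libraries. It was still above the highest KO library, at 1.01 CPM, so WT and KO did not overlap. Magel2 (chr7:62377010-62381640, plus strand) had 15.6, 15.9, 2.16, 16.2 and 17.9 CPM in WT day, 17, 19.5, 17.8, 17.7 and 19.1 CPM in WT night, 0.0269, 0.164, 0.11, 0.0276 and 0.0413 CPM in KO day and 0.11, 0.142, 0.182, 0.0575 and 0 CPM in KO night. Here too the library labelled WT_day 3 was low, at 2.16 CPM or 12.4% of the other WT libraries' mean of 17.4 CPM. The highest KO library had 0.182 CPM. At both genes the level of WT_day 3 goes against its label and lies outside the KO range too. That library was kept, and several results are given with and without it. The predicted gene Gm32061 overlaps Ndn and Magel2 in the annotation. The time field of 6 libraries (WT_night 1, KO_day 1, KO_day 2 and KO_night 1, 2 and 3) contradicts the time letter of their titles, and the title of KO_day 5 has no time letter, so its time comes from that field. The titles of WT_day 4 and WT_day 5 carry the same replicate number, so the number of WT_day 5 is a name only. Reads counted to genes ran from 32066289 to 48697647 per library, and 2 mitochondrial ribosomal RNAs took 15% of them in KO_night 4 and 18.4 to 22.6% in the others.

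The hypothalamus markers, among them Oxt, Avp, Pmch, Hcrt, Agrp and Pomc, were expressed in every group, with sums of 867 to 1030 CPM in WT day, 701 to 918 CPM in WT night, 903 to 1110 CPM in KO day and 957 to 1170 CPM in KO night. Sums of markers of other cells and neighbouring tissue differed between groups. Pituitary markers, which include Pomc, had sums with medians of 78.3 CPM in WT day (highest 889 CPM), 37.6 CPM in WT night, 58.2 CPM in KO day and 92.3 CPM in KO night (highest 333 CPM), and 9 of 10 had an interaction value above 0, with a median of 0.93. That median ran from 0.12 to 1.15 when 1 library was left out, and no pituitary marker had an unadjusted p under 0.05 without WT_day 1, beside 2 of 10 with all libraries. Markers of meninges and fibroblasts had median sums of 54.1, 80.8, 64.4 and 59 CPM in the same order, with Igf2 at 0, and all 6 tested had interaction values below 0. Sums of cortex and hippocampus markers were 73.4 to 75 CPM in WT day and 78.8 to 96.3 CPM in WT night, and 77.8 to 87.3 and 78.2 to 83.6 CPM in KO day and night. Endothelium markers ran from 151 to 154 CPM in WT day and from 161 to 174 CPM in WT night, and overlapped between the KO times. The part of these tissues in the results was not tested.

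Day-night differences were found in each genotype when it was taken alone. In WT 61 genes (0.275%) passed at an adjusted p under 0.05, 29 higher at night (0.131%) and 32 lower (0.144%). In KO 16 genes (0.0721%) passed, 12 higher (0.0541%) and 4 lower (0.018%). At an unadjusted p under 0.05 the shares were 15.9% in WT and 17.7% in KO. Dbp was the 1 gene on both lists. Of the 61 WT genes, 28 had a KO difference of the opposite sign, 32 had a smaller one of the same sign and 1 had a larger one. The KO side of this is a description: 55 of the 61 had an unadjusted interaction p under 0.05, and none passed after adjustment. Each genotype's difference is a term of the interaction. Choosing genes by 1 of them favours a low interaction p and a smaller difference in the other genotype. Of the 16 KO genes, 12 had a WT difference of the opposite sign and 4 a smaller one of the same sign. Without the library labelled WT_day 3 the WT list held 12 genes, and without WT_day 5 it held 9. The KO list was empty without KO_day 2, KO_day 3, KO_day 5 or KO_night 2, and held 328 genes without KO_day 1.

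**Figure D1:**
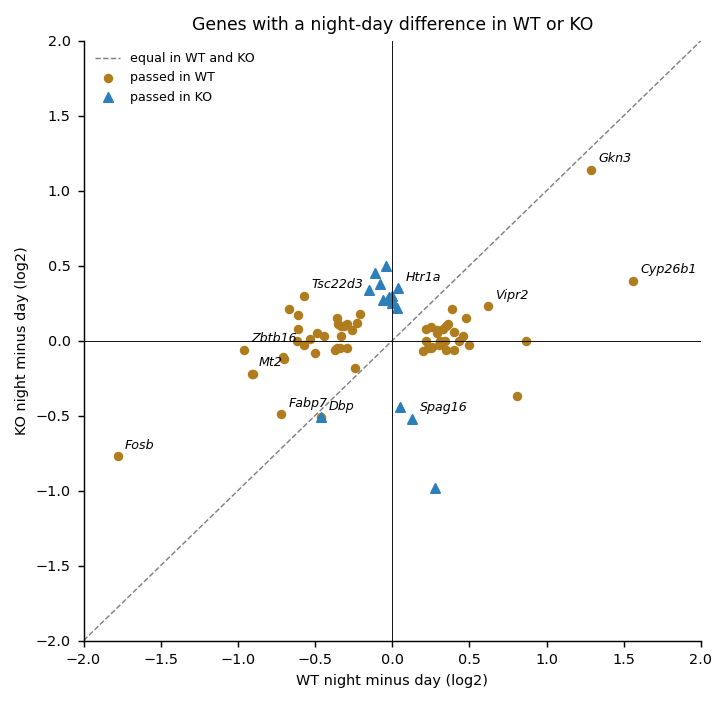
Night minus day (log2) in WT on the horizontal axis and in KO on the vertical axis, for the 61 genes that passed in WT (circles) and the 16 that passed in KO (triangles). Most circles lie near a KO value of 0 and most triangles near a WT value of 0, while Dbp, Fabp7 and Gkn3 lie close to the dashed line of equal difference.

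Over all 22181 genes the 2 differences had opposite signs for 13087 (59%), and over the 4910 genes with an unadjusted interaction p under 0.05 for 4650 (94.7%). Of those 4910, 2361 (10.6% of all genes) had values above 0 and 2549 (11.5%) below 0. By unadjusted p, 1598 of them had a WT difference alone, 1924 a KO difference alone, 437 both and 951 neither, and 436 of the 437 had opposite signs. The interaction is the KO difference minus the WT difference, so choosing genes by its p favours opposite signs. The shares of opposite signs among these chosen genes are therefore descriptions and do not show a reversal. A gene called lost here passed in WT and not in KO, gained is the reverse, reversed means both passed with opposite signs, and crossing means that neither passed while the signs were opposite. Because edgeR called no interaction, all 4 classes were empty.

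Other tools called many. DESeq2 called 1166 genes (551 higher and 615 lower, of 17042 tested) and limma voom with library quality weights called 2469 (1175 and 1294). They shared 1102, all with the same sign, which is 94.5% of the DESeq2 list and 44.6% of the voom list. DESeq2 put 722 of its calls in the crossing class, 264 in gained, 173 in lost and 7 in reversed. Voom put 1773 in crossing, 179 in gained, 512 in lost and 5 in reversed. Stmn3, Slain2 and Ciapin1 were reversed by both tools. Within edgeR, leaving out 1 library decided the count: it was 1555 without WT_night 4, 1512 without KO_night 4, 717 without KO_day 4 and 474 without KO_day 1, and between 0 and 8 without each of the other 16. Restricted to the 14 libraries with no conflict between title and time field, edgeR called 0 genes and 9.37% had an unadjusted p under 0.05. Of the KO libraries, that leaves KO_day 3 to 5 and KO_night 4 and 5. When every library's time was taken from the time field it called 0 genes and 4.41% did.

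The genes with the smallest interaction p are given as not passing, with adjusted p between 0.0543 and 0.0552. Ciapin1, Tsc22d3, Apol8, Gpt2, Ogfod2, Tuba1c, Fam213b, Gtf3a, Srxn1 and Mrpl47 had positive values, from 0.34 in Gtf3a to 0.93 in Apol8. Slain2, Sncaip, Lama4, Cxadr, Sema6a, Spag16, Fbxl13, Lmntd1 and Zswim5 had negative ones, from -0.31 in Slain2 to -0.80 in Lmntd1. Ciapin1, Gtf3a and Mrpl47 overlap other genes (Coq9, Mtif3 and Ndufb5), and whether reads were assigned by strand is not given in the sources used here, so their values are uncertain. Each gene named here was also called by DESeq2 and by voom, and each kept its sign without the library labelled WT_day 3.

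Tsc22d3 (chrX:140539528-140600659, minus strand) encodes GILZ, a leucine zipper protein induced by glucocorticoids. Its libraries held 90.5, 93.7, 134, 95.5 and 103 CPM in WT day, 71, 66.9, 59.8, 79.6 and 71 CPM in WT night, 79.4, 59.8, 66.7, 70.2 and 70.5 CPM in KO day and 74.8, 110, 70.2, 83.1 and 90.7 CPM in KO night. WT day stood above WT night and above KO day with no overlap, while both KO times and both night groups overlapped. It fell at night in WT, by 0.57 on the log2 scale (adjusted p = 0.0262), its KO value was 0.30 ± 0.11 (SE, adjusted p = 0.163), and the interaction value was 0.88 ± 0.156 (SE, adjusted p = 0.0543). With WT_day 3, its highest library, left out, the WT value was -0.45 (adjusted p = 0.0842) and the interaction 0.75 (adjusted p = 0.0941).

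Gpt2 (chr8:85492576-85527560, plus strand), a mitochondrial alanine aminotransferase, had 44.3, 44.7, 54, 46.3 and 46.2 CPM in WT day, 42.1, 38.9, 36.7, 42.8 and 40 CPM in WT night, 43.4, 35, 36.8, 36.9 and 40 CPM in KO day and 42.7, 50.7, 43.3, 44.9 and 47.3 CPM in KO night. Again WT day was above WT night and KO day with no overlap. The interaction value was 0.49 ± 0.0903 (SE, adjusted p = 0.0543), and 0.42 (adjusted p = 0.097) with WT_day 3, its highest library, left out. Apol8 (chr15:77747798-77757003, minus strand), of the apolipoprotein L family, had 1.69, 1.84, 1.65, 2.35 and 1.91 CPM in WT day, 1.48, 1.48, 1.23, 1.13 and 1.31 CPM in WT night, 1.45, 1.47, 1.16, 1.35 and 1.16 CPM in KO day and 1.74, 1.9, 1.69, 1.75 and 1.8 CPM in KO night. No 2 groups that differ in 1 factor overlapped: WT day exceeded WT night and KO day, and KO night exceeded KO day and WT night. Its night minus day values were -0.50 ± 0.122 (SE, adjusted p = 0.0744) in WT and 0.43 ± 0.122 (SE, adjusted p = 0.0974) in KO, and the interaction 0.93 ± 0.172 (SE, adjusted p = 0.0543). Tuba1c (chr15:99029891-99038110, plus strand), an alpha tubulin, had 32.1, 31, 34.7, 30 and 31.6 CPM in WT day, 26.4, 28.9, 23, 29.6 and 28.5 CPM in WT night, 30.1, 25.8, 25.2, 31.9 and 32.2 CPM in KO day and 33.1, 36.6, 34.1, 41.9 and 40.6 CPM in KO night. Its KO night libraries were all above KO day and above WT night, and its interaction value was 0.58 ± 0.111 (SE, adjusted p = 0.0543).

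Slain2 (chr5:72914304-72978829, plus strand), which promotes microtubule growth, gave the opposite picture in 32.9, 35.4, 33.9, 33.5 and 32.8 CPM in WT day, 38.3, 36, 37.5, 36.5 and 38.5 CPM in WT night, 37.2, 39.3, 36.9, 36.9 and 36.8 CPM in KO day and 31.8, 32.7, 32.7, 35.9 and 34.3 CPM in KO night. WT night and KO day were the high groups, and neither overlapped WT day or KO night. The differences were small, 0.15 ± 0.0398 (SE, adjusted p = 0.0972) in WT and -0.16 ± 0.0398 (SE, adjusted p = 0.08) in KO, with an interaction value of -0.31 ± 0.0563 (SE, adjusted p = 0.0543). Lama4 (chr10:38965515-39110188, plus strand), a laminin chain of vascular basement membranes, had 7.47, 10.2, 7.95, 7.38 and 7.52 CPM in WT day, 10.6, 11.4, 10.2, 12.6 and 10.9 CPM in WT night, 11.4, 10.3, 7.73, 10.3 and 8.65 CPM in KO day and 8.72, 7.18, 7.07, 7.71 and 8.21 CPM in KO night. WT night lay above KO night with no overlap, and the day groups overlapped. The interaction value was -0.77 ± 0.145 (SE, adjusted p = 0.0543), and the meninges and fibroblast markers also had values below 0 (above). Spag16 (chr1:69826970-70725132, plus strand), a sperm and cilium axoneme protein, had 29.4, 33, 29.3, 29.5 and 28.5 CPM in WT day, 33.2, 33.3, 41.3, 28.4 and 27.9 CPM in WT night, 27.3, 36.2, 39.4, 34.1 and 34.3 CPM in KO day and 24.1, 21.6, 23.1, 27.4 and 23.5 CPM in KO night. It fell at night in KO, by 0.52 on the log2 scale (adjusted p = 0.0328), with a WT value of 0.13 ± 0.0928 (SE, adjusted p = 0.492). KO_night 4 overlapped KO_day 1, and the other KO night libraries were below all KO day ones. With WT_night 1 to 3 left out, the 3 WT night libraries with the highest levels of long genes, its interaction value was -0.43 in place of -0.65.

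**Figure D2:**
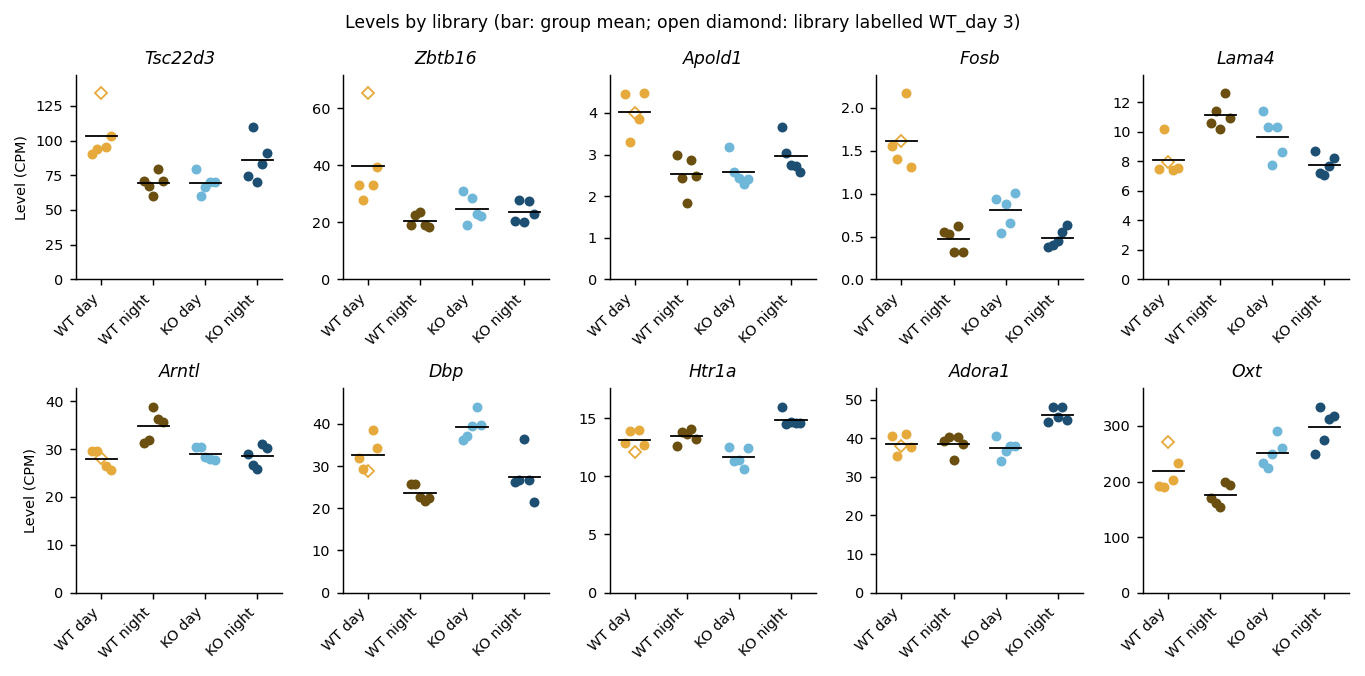
Level (CPM, linear axis from 0) of 10 genes in each of the 20 libraries by group, with the group mean as a bar and the library labelled WT_day 3 as an open diamond. WT day has the highest mean in Tsc22d3, Zbtb16, Apold1 and Fosb, WT night is highest in Lama4, KO night is highest in Htr1a and Adora1, and Dbp is lower at night in both genotypes.

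Glucocorticoid-induced genes held the largest positive median of the pathway lists. Of 18 tested, 17 had an interaction value above 0 and 12 had an unadjusted p under 0.05, all above 0, against 10.6% of all genes. None passed after adjustment, as for all genes. The list's median was 0.61 (0.00 over all genes), with -0.44 for night minus day in WT and 0.15 in KO. Tsc22d3, Mt1, Mt2 and Zbtb16 fell at night in WT, and no member of the list passed in KO. Over all genes 32 of 22181 (0.144%) fell in WT. With WT_day 3 left out, 10 of 18 had an unadjusted p under 0.05 (7.58% of all genes above 0) and the median was 0.53. Over all 20 fits leaving out 1 library the median stayed between 0.46 and 0.66. With time taken from the time field the median was 0.46 and 18 of 18 were above 0. An unadjusted p under 0.05 was then reached by 7 of them (2.18% of all genes above 0). With WT_night 1 to 3 left out 7 of 18 did as well (5.08% of all genes above 0), with a median of 0.43.

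Zbtb16 (chr9:48654297-48836222, minus strand), a zinc finger transcription factor also called PLZF, had 33, 27.7, 65.2, 33.2 and 39.4 CPM in WT day, 18.9, 22.7, 23.7, 19 and 18.3 CPM in WT night, 31.1, 19.1, 28.6, 22.9 and 22.2 CPM in KO day and 20.4, 27.8, 20.2, 27.3 and 22.8 CPM in KO night. All WT day libraries were above all WT night ones, the library labelled WT_day 3 being far the highest, and the KO times overlapped. The WT value was -0.96 ± 0.172 (SE, adjusted p = 0.0206), the KO value -0.06 ± 0.173 (SE, adjusted p = 0.889) and the interaction 0.89 ± 0.244 (SE, adjusted p = 0.0726). It also fell in WT with WT_day 3 left out, by 0.69 on the log2 scale (adjusted p = 0.0417), and the interaction value was 0.62. Mt1 (chr8:94179082-94180327, plus strand), a metal-binding metallothionein, had 74.6, 75.3, 91.9, 85.3 and 107 CPM in WT day, 61.4, 63.3, 57, 63.8 and 60.8 CPM in WT night, 73, 72.5, 75, 90.3 and 87.3 CPM in KO day and 70.1, 93.1, 73.8, 69 and 70.8 CPM in KO night. WT night lay below every library of the other 3 groups. Its WT value was -0.50 ± 0.0911 (SE, adjusted p = 0.0207), which did not pass with WT_day 3 left out (-0.47, adjusted p = 0.0739), and the interaction was 0.42 ± 0.128 (SE, adjusted p = 0.0866). Its neighbour Mt2 fell by 0.91 in WT (adjusted p = 0.000967, and in all 20 fits leaving out 1 library), with -0.22 in KO, but a predicted gene, Gm45774, overlaps it.

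Plin4 (chr17:56100591-56109803, minus strand), a lipid droplet coat protein, had 9.01, 7.46, 19.5, 8.64 and 12.2 CPM in WT day, 9.1, 7.92, 6.23, 8.39 and 5.59 CPM in WT night, 7.34, 4.51, 4.75, 3.75 and 4.42 CPM in KO day and 7.23, 9.74, 4.91, 13.3 and 9.83 CPM in KO night. The library labelled WT_day 3 was the highest of all, KO day was the lowest group, below all WT day libraries, and both WT times and both KO times overlapped. Its interaction value was 1.47 ± 0.349 (SE, adjusted p = 0.0588), and 1.17 with WT_day 3 left out. Reads of the overlapping gene Hdgfl2 may be included. Hif3a, a hypoxia-inducible factor, had 0.15 in KO, -0.90 in WT and an interaction of 1.05. Sgk1, the serum and glucocorticoid regulated kinase, had 0.22, -0.74 and 0.96. None of these 6 values passed. With WT_day 3 left out the interaction was 0.88 for Hif3a and 0.55 for Sgk1.

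The promoter of Mt1 shows the kind of sequence through which the glucocorticoid receptor acts. In 250 bases upstream of the start, on the plus strand at chr8:94178839-94179088 (RefSeq promoter table, build GRCm38.p6), capitals mark the single match to the glucocorticoid response element, which begins 94 bases before the start.
Mt1: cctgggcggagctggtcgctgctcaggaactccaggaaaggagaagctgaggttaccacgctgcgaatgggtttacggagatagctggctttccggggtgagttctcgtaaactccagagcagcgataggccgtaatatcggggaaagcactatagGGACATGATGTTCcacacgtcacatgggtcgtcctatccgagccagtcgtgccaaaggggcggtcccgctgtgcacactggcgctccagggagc
The start is the RefSeq one, which lies slightly inside the gene span given above for Mt1. The letters were searched on both strands, and the element's core is palindromic. Among the 16 listed genes that the promoter table holds, 3 had a match (Sgk1, Map3k6 and Mt1), against 119 of all 27025 genes (0.44%). The list is of known glucocorticoid-induced genes, so this share is a description and no separate support.  A match is a description of the letters, not evidence of binding.

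Activity-induced immediate early genes, switched on within minutes of neuronal firing, followed. Of 24 tested, 22 had an interaction value above 0, with a median of 0.36. An unadjusted p under 0.05 was reached by 11, all above 0, against 10.6% of all genes. Night minus day had a median of -0.31 in WT and -0.00 in KO. Fosb and Apold1 fell at night in WT, and no member passed in KO. The count of 11 ranged from 8 to 12 over the fits that leave out 1 library. It was 3 with WT_night 1 to 3 left out (5.08% of all genes above 0) and 4 with time from the time field (2.18%).

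Fosb (chr7:19302696-19310051, minus strand), an AP-1 subunit, had 1.56, 1.4, 1.61, 2.17 and 1.31 CPM in WT day, 0.548, 0.532, 0.314, 0.625 and 0.321 CPM in WT night, 0.941, 0.538, 0.884, 0.662 and 1.01 CPM in KO day and 0.373, 0.397, 0.442, 0.547 and 0.639 CPM in KO night. WT day was above every other library of the 20, and the KO times overlapped only through KO_day 2 and the 2 highest KO night libraries. It fell 3.43-fold at night in WT, a log2 value of -1.78 ± 0.216 (SE, adjusted p = 0.000231), and in all 20 fits leaving out 1 library. In KO the value was -0.77 ± 0.23 (SE, adjusted p = 0.11), and the interaction 1.01 ± 0.322 (SE, adjusted p = 0.0928). Its levels are low, near 1 CPM. Apold1 (chr6:134981718-134986836, plus strand), an endothelial immediate early gene, had 4.45, 3.29, 4, 3.86 and 4.47 CPM in WT day, 2.99, 2.44, 1.83, 2.86 and 2.48 CPM in WT night, 3.17, 2.57, 2.43, 2.29 and 2.42 CPM in KO day and 3.67, 3.04, 2.75, 2.73 and 2.59 CPM in KO night. WT day was above WT night and KO day with no overlap. Its WT value was -0.67 ± 0.129 (SE, adjusted p = 0.0262), its KO value 0.21 ± 0.131 (SE, adjusted p = 0.415) and its interaction 0.88 ± 0.184 (SE, adjusted p = 0.0576), but the WT value did not pass when WT_day 3 was left out (-0.67, adjusted p = 0.0739). Fos itself had -0.78 in WT (adjusted p = 0.0744), -0.10 in KO and an interaction of 0.67 (adjusted p = 0.15). Nr4a1, an orphan nuclear receptor, had 0.44, and Arc, a synaptic capsid-like protein, 0.35.

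Genes of the unfolded protein response, which raise the folding capacity of the endoplasmic reticulum, also had values above 0, but with the larger difference in KO. All 18 tested had an interaction value above 0, with a median of 0.26. An unadjusted p under 0.05 was reached by 11, against 10.6% of all genes above 0. Night minus day had a median of -0.04 in WT and 0.19 in KO, and no member passed in either. Hspa5 (chr2:34771970-34777547, plus strand), the chaperone BiP, had 294, 313, 310, 271 and 264 CPM in WT day, 258, 269, 229, 337 and 335 CPM in WT night, 284, 231, 217, 247 and 232 CPM in KO day and 349, 316, 255, 276 and 328 CPM in KO night. All pairs of groups overlapped, KO day holding 4 of its 5 libraries below 250 CPM. Its night minus day values were -0.02 ± 0.0988 (SE, adjusted p = 0.929) in WT and 0.33 ± 0.0989 (SE, adjusted p = 0.11) in KO, with an interaction of 0.36 ± 0.14 (SE, adjusted p = 0.146). Creld2, a secreted chaperone partner, had 0.46, Ddit3 (CHOP, which overlaps Mars) 0.38, the transcription factor Xbp1 0.35, Herpud1 of the degradation pathway 0.30, the lectin chaperone Calr 0.29, the disulfide isomerase Pdia6 0.27 and the chaperone Hyou1 0.23. With WT_night 1 to 3 left out 1 of 18 had an unadjusted p under 0.05 (5.08% of all genes above 0) and the median was 0.08. With time from the time field 0 of 18 did (2.18% of all genes above 0) and the median was 0.01. Where the time labels agree 9 of 18 did (5.26% of all genes above 0), with a median of 0.24.

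Some of these genes hold an upstream element of this response. The list is of known genes of the response, so the share with the element is a description and no separate support. The ER stress element is bound by ATF6 together with NF-Y, and was matched in the 250 bases upstream of 7 of the 16 members that the promoter table holds (Hspa5, Hsp90b1, Pdia6, Calr, Dnajc3, Creld2 and Syvn1), against 35 of 27025 genes (0.13%). For 4 of them the stretch is given on the gene's own strand, 5′ to 3′, with the match in capitals, read forwards in Hspa5 and Pdia6 and as its reverse complement in Creld2 and Calr. They lie at chr2:34771840-34772089 (plus), chr12:17266339-17266588 (plus), chr15:88819396-88819645 (plus) and chr8:84846932-84847181 (minus) of GRCm38.p6.
Hspa5: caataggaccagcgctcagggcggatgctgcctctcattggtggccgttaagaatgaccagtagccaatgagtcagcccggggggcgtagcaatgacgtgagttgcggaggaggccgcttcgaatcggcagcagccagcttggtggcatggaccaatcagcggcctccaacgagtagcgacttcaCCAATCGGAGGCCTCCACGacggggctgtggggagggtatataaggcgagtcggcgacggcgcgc
Pdia6: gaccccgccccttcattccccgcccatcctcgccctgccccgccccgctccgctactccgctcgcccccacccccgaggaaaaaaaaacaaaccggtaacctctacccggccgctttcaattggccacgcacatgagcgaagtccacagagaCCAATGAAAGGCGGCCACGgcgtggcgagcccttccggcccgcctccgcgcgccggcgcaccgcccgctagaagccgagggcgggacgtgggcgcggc
Creld2: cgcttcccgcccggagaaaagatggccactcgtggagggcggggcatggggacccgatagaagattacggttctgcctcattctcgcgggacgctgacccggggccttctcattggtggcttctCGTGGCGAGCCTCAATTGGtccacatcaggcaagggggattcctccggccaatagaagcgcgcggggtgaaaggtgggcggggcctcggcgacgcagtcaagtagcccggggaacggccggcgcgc
Calr: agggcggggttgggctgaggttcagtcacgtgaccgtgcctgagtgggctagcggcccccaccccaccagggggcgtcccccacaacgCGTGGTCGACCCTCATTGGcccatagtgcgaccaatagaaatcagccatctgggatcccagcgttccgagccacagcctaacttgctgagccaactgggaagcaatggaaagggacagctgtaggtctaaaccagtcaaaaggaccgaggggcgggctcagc
The matches begin 65, 98, 126 and 162 bases before the start, which is that of the RefSeq promoter table. For Hspa5 that start, and the match with it, lies inside the gene span given above from GENCODE. Both strands were searched, and no overlap with another searched motif was scored. The heat and cold shock genes, a mixed list, had 10 of 13 values above 0 with a median of 0.20. An unadjusted p under 0.05 was reached by 1 of them, against 10.6% of all genes above 0. That median was -0.01 with WT_night 1 to 3 left out and -0.05 with time from the time field.

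Nuclear genes of oxidative phosphorylation had small values of 1 sign. All 32 tested had an interaction value above 0 and 24 had an unadjusted p under 0.05, against 10.6% of all genes above 0. The list's median was 0.23, from a median of -0.16 in WT and 0.08 in KO. Atp5e (chr2:174461072-174464105, minus strand), a subunit of ATP synthase, had 41.5, 43.4, 45.4, 37.5 and 44.9 CPM in WT day, 32.9, 33.3, 28.8, 34.4 and 37.3 CPM in WT night, 36.6, 36.7, 33.5, 45.9 and 37.5 CPM in KO day and 42.7, 46.3, 40.4, 35.5 and 37.6 CPM in KO night. WT day was above WT night with no overlap, by a small margin, and the KO times overlapped. Its WT value was -0.35 ± 0.0802 (SE, adjusted p = 0.0599), its KO value 0.09 ± 0.0798 (SE, adjusted p = 0.58) and its interaction 0.44 ± 0.113 (SE, adjusted p = 0.0618). Uqcr10 of complex III had an interaction value of 0.33 and Atp5g1, another ATP synthase subunit, 0.27. The 13 mitochondrially encoded genes did not share this, with 5 above 0 and a median of -0.03.

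Cytosolic ribosomal protein genes had 49 of 49 interaction values above 0 and 19 with an unadjusted p under 0.05, against 10.6% of all genes above 0. Their median was 0.20, from -0.17 in WT and 0.03 in KO. Rplp1 (chr9:61913284-61914542, minus strand), of the ribosomal stalk, had 210, 217, 214, 194 and 210 CPM in WT day, 164, 180, 156, 199 and 195 CPM in WT night, 195, 191, 174, 209 and 181 CPM in KO day and 213, 229, 192, 190 and 201 CPM in KO night. All pairs of groups that differ in 1 factor overlapped. Its interaction value was 0.34 ± 0.0936 (SE, adjusted p = 0.0733). Rplp2, its partner, had 0.35, Rpl8 0.26 and Rps19 0.25. The counts and medians of both lists changed with the libraries used, and so did the share of all genes. Restricted to the 14 libraries with no time conflict, 2 of 32 respiratory and 1 of 49 ribosomal genes had an unadjusted p under 0.05, with medians of 0.13 and 0.04. The share of all genes above 0 by that p was 5.26% there. With KO_night 1 to 3 left out 6 and 2 did (medians 0.14 and 0.05, all genes 6.36%). With WT_night 1 to 3 left out 3 and 1 did (0.13 and 0.08, all genes 5.08%). With time from the time field none did (all genes 2.18%), and both medians were -0.00. Leaving out single libraries gave 15 to 28 respiratory and 9 to 42 ribosomal genes, the lowest of both without KO_night 2.

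These lists are made of short genes, and gene span moved with the interaction across the whole genome. Genes spanning under 3 kb had a median interaction of 0.10 (3617 genes), those of 3 to 10 kb 0.09, 10 to 30 kb 0.04, 30 to 100 kb -0.05, 100 to 300 kb -0.16 and over 300 kb -0.27 (604 genes). Of the 604, 381 (63.1%) had an unadjusted p under 0.05 with a value below 0 and 0 with a value above 0. The trend ran in opposite directions in the genotypes: from the shortest to the longest class the median of night minus day went from -0.04 to 0.10 in WT and from 0.04 to -0.17 in KO.

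The same contrast can be read in each library as the mean deviation of 2540 long genes minus that of 5228 short ones (log2). In WT night it was 0.18, 0.10, 0.32, -0.06 and 0.05, and in KO night -0.10, -0.24, -0.18, -0.03 and -0.06. WT day lay between -0.04 and 0.02, and KO day had -0.07, 0.13, 0.15, -0.14 and 0.04. The night groups overlapped through WT_night 4, and KO day was as wide as WT night. Sums of thalamus markers, whose genes have a median span of 72.4 kb, were 535, 515, 631, 365 and 422 CPM in the 5 WT night libraries, in the same order from high to low as the contrast. They were 392, 384, 298, 416 and 379 CPM in KO night, where the order differed from that of the contrast. In KO day they were 394, 482, 467, 337 and 441 CPM, and in WT day 431 to 469 CPM. A sum is carried by the most abundant members. Of the 6 thalamus markers 3 had an interaction value above 0, with a median of 0.28. Their part in the trend was not tested. Whether RNA quality or the share of unspliced RNA differs between these libraries was not tested.

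**Figure D3:**
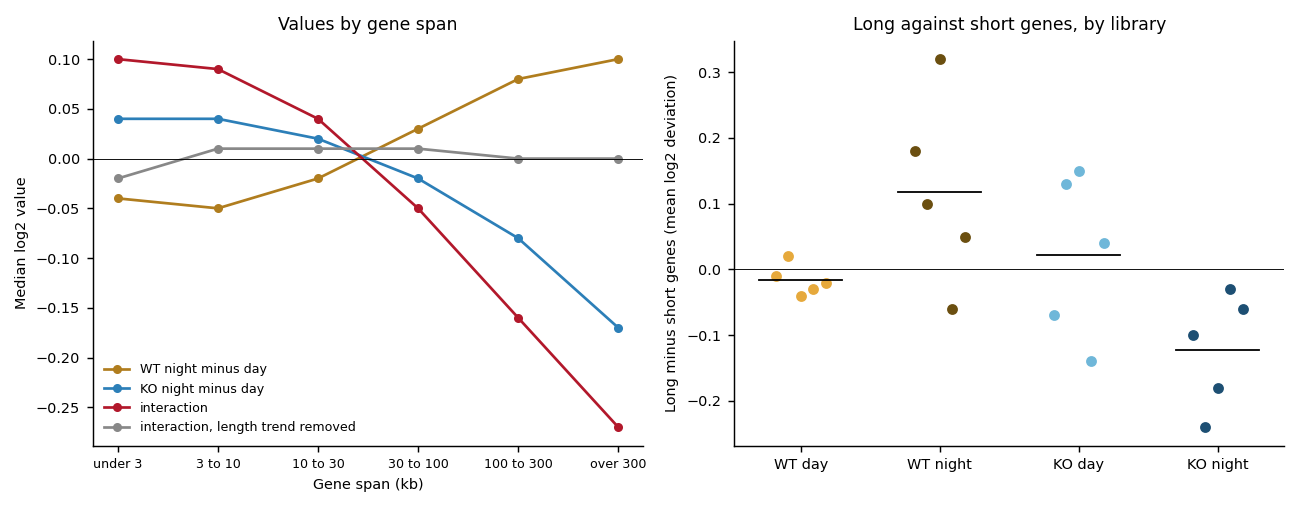
Left, median log2 value of genes in 6 classes of gene span, for night minus day in WT and in KO, for the interaction and for the interaction after a smooth trend with gene length was removed from each library. Right, long minus short genes in each library (log2), with group means as bars at -0.02, 0.12, 0.02 and -0.12. The interaction declines from 0.10 to -0.27 with span and, by construction, is near 0 in all classes once the trend is removed.

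With a smooth trend on gene length removed from each library, the class medians lay between -0.02 and 0.01, which the removal is built to give. In that fit edgeR called 8 genes (0.0361%), among them Ciapin1, Tsc22d3, Sncaip, Gpt2, Adipor2, Itpk1 and Plcb1. Tsc22d3 then had an interaction value of 0.94 (adjusted p = 0.0302), Gpt2 0.50, Adipor2, an adiponectin receptor, 0.50, Ciapin1 0.36 and Sncaip, a synuclein partner, -0.38. Itpk1, an inositol phosphate kinase, had 0.37 and Plcb1, a phospholipase C of 689 kb, 0.38, where the values without the correction were 0.23 and 0.09. By class, 6 of the 8 were lost, 1 was reversed and 1 was crossing. None was called when this correction was combined with leaving out the library labelled WT_day 3. The glucocorticoid list had 11 of 18 genes with an unadjusted p under 0.05 and a median of 0.51, and the unfolded protein response list 11 of 18 and 0.22. The immediate early list had 9 of 24 and 0.27, respiratory genes 17 of 32 and 0.16 and ribosomal genes 11 of 49 and 0.10, beside 9.31% of all genes above 0.

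Lists of long genes had medians nearer 0 after the correction. The correction subtracts the trend with span, so this is built in and cannot show whether these lists differed. Voltage-gated and potassium channels, with a median span of 165 kb, had 22 of 26 interaction values at or below 0, with a median of -0.17. Of these 10 had an unadjusted p under 0.05, beside 11.5% of all genes below 0. After the trend was removed the median was -0.01 and 0 of 26 had an unadjusted p under 0.05 below 0, beside 7.47% of all genes. Cacna1e, a calcium channel of 494 kb, went from -0.30 to -0.04, and Kcnd3, a potassium channel of 222 kb, from -0.28 to -0.08. Glutamate receptors and scaffolds, with a median span of 223 kb, went from a median of -0.15 with 10 of 27 below 0 by unadjusted p to 0.06 with 0 of 27. There Grin2b, an NMDA receptor subunit, went from -0.30 to -0.04, and Grm7 from -0.31 to 0.01. Gabre, a GABA-A subunit of 18.8 kb, had -0.56 before and -0.59 after.

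Clock genes that peak in the light phase had like medians of night minus day in both genotypes, though 4 of the 10 tested had opposite signs. Dbp (chr7:45705088-45710203, plus strand), a PAR bZIP factor driven directly by the clock, had 32, 29.2, 28.8, 38.6 and 34.3 CPM in WT day, 25.8, 25.8, 22.7, 21.7 and 22.4 CPM in WT night, 36.1, 37.1, 39.4, 44.1 and 39.8 CPM in KO day and 26.1, 26.7, 36.5, 26.6 and 21.5 CPM in KO night. WT day was above WT night with no overlap, and in KO only KO_night 3 reached into the day range. It fell at night in both genotypes, with log2 values of -0.46 ± 0.101 (SE, adjusted p = 0.0498) in WT and -0.51 ± 0.0997 (SE, adjusted p = 0.0489) in KO. The interaction was -0.05 ± 0.142 (SE, adjusted p = 0.852), and its sign changed in 3 of the alternatives. Each of the 2 calls was lost in 15 of the 20 fits that leave out 1 library. Sphk2 overlaps it. As a list, 10 tested light-phase genes had a median of -0.13 in WT, -0.12 in KO and -0.04 for the interaction. An unadjusted p under 0.05 was reached by 1 in each direction, beside 10.6% of all genes above 0 and 11.5% below 0. Ciart, a repressor of the clock, had -0.34 in WT and -0.39 in KO, Per1 -0.21 and -0.25, and Nr1d2 (REV-ERB beta) -0.17 and -0.13, of which none passed. Hlf, another PAR bZIP factor, had 0.09 in WT, -0.18 in KO and an interaction of -0.28 (adjusted p = 0.0894). Nr1d1 (REV-ERB alpha) had 0.18, but its antisense neighbour Thra is more abundant.

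The promoter of Ciart shows the E-box, CACGTG, through which CLOCK and BMAL1 act, in a gene whose night value was alike in both genotypes. In 250 bases upstream at chr3:95882229-95882478 (minus strand, GRCm38.p6) it holds 3, in capitals, which begin 116, 58 and 44 bases before the start.
Ciart: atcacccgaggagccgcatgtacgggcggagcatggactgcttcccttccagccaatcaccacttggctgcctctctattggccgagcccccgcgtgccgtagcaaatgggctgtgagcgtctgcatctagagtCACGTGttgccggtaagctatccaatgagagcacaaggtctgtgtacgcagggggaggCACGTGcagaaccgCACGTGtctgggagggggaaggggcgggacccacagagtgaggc
Among the 9 light-phase genes that the promoter table holds, 4 had an E-box (Per1, Cry1, Tef and Ciart), against 1854 of 27025 genes (6.86%). The list is of known clock genes, so this share is a description and no separate support. E-boxes farther away were not searched.

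Arntl (chr7:113207465-113314126, plus strand), which encodes BMAL1, had 29.6, 29.6, 28.1, 26.5 and 25.7 CPM in WT day, 31.3, 31.9, 38.9, 36.3 and 35.6 CPM in WT night, 30.4, 30.4, 28.4, 27.9 and 27.7 CPM in KO day and 29, 26.7, 25.9, 31.1 and 30.2 CPM in KO night. WT night was above WT day and above KO night with no overlap, and the KO times overlapped. It rose at night in WT with a log2 value of 0.32 ± 0.0622 (SE, adjusted p = 0.0262), its KO value was -0.02 ± 0.0624 (SE, adjusted p = 0.906) and the interaction -0.34 ± 0.0881 (SE, adjusted p = 0.0641). With the length trend removed the interaction was -0.22 (adjusted p = 0.183), and with WT_day 3 left out the WT value did not pass (0.33, adjusted p = 0.0664). The list of 15 dark-phase and other clock genes, which holds Arntl, had an interaction median of -0.02. In it 1 gene had an unadjusted interaction p under 0.05 above 0 (Nfil3, 0.28) and 4 below 0, Arntl among them. Vipr2 (chr12:116077726-116146261, plus strand), the receptor that couples neurons of the suprachiasmatic nucleus, had 5.2, 5.72, 4.42, 5.55 and 4.87 CPM in WT day, 8.28, 9.91, 6.6, 8.04 and 6.76 CPM in WT night, 6.32, 6.03, 5.25, 4.33 and 5.08 CPM in KO day and 7.67, 7.35, 4.7, 6.88 and 4.96 CPM in KO night. WT night was above WT day with no overlap, and the KO times overlapped. It rose in WT, with 0.62 ± 0.137 (SE, adjusted p = 0.0498), had 0.23 ± 0.138 (SE, adjusted p = 0.393) in KO and an interaction of -0.40 ± 0.194 (SE, adjusted p = 0.232), and the WT value did not pass with WT_day 3 left out (0.58, adjusted p = 0.14). The list of 15 suprachiasmatic genes had a median of -0.08, and 2 with an unadjusted p under 0.05, both below 0.

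Further genes changed at night in WT with smaller KO values. Cyp26b1 (chr6:84571414-84593908, minus strand), which degrades retinoic acid, had 2, 2.08, 2.13, 0.915 and 1.39 CPM in WT day, 5.84, 8.68, 3.95, 3.96 and 3.03 CPM in WT night, 2.47, 2.06, 1.3, 3.12 and 1.53 CPM in KO day and 2.79, 2.73, 1.95, 2.62 and 3.74 CPM in KO night. Every WT night library was above every WT day library, WT_night 2 highest, and the KO times overlapped. It rose 2.96-fold in WT, a log2 value of 1.56 ± 0.266 (SE, adjusted p = 0.0148), with 0.40 ± 0.272 (SE, adjusted p = 0.446) in KO and an interaction of -1.16 ± 0.381 (SE, adjusted p = 0.0971), which was -0.62 with WT_night 1 to 3 left out. The other retinoic acid genes were mixed, 6 of 15 above 0 with a median of -0.06.

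Picked from the WT list after their values were seen, the cadherin Fat4 rose by 0.34 (adjusted p = 0.00492), the planar polarity cadherin Celsr2 by 0.36 (adjusted p = 0.0158) and the receptor Notch1 by 0.29 (adjusted p = 0.0148). Their KO values were -0.00, 0.11 and 0.07 and their interactions -0.35, -0.25 and -0.22. The planar polarity and Wnt list as a whole had 1 of 16 members that rose in WT and an interaction median of -0.12, with 3 of 16 below 0 and 1 above 0 by unadjusted p. Of the genes that fell, Pnpla7, a lysophospholipase, had -0.53 in WT (adjusted p = 0.019), 0.01 in KO and an interaction of 0.53. Srxn1, which repairs oxidised peroxiredoxins, had -0.29 (adjusted p = 0.0262), 0.11 and 0.41, and Txnip, a thioredoxin inhibitor that overlaps a predicted gene, -0.70 (adjusted p = 0.0395), -0.12 and 0.58. By contrast Fabp7, a glial fatty acid binding protein, had -0.72 in WT (adjusted p = 0.0262) and -0.49 in KO, and Gkn3, an arterial endothelial gene, 1.29 (adjusted p = 0.0262) and 1.14. Their interaction values were 0.23 and -0.15. Of the 20 fits leaving out 1 library, the WT values of Fat4 and Celsr2 passed in 20, Notch1 in 19 (not without WT_day 1) and Pnpla7 in 18 (not without WT_day 5 or WT_night 3). Several WT libraries, left out alone, ended the calls of Gkn3 (passing in 15 fits), Fabp7 (13), Txnip (12) and Srxn1 (11), among them WT_day 1, 3 and 5 and WT_night 1 and 2, with adjusted p up to 0.102, 0.0888, 0.123 and 0.096 for the 4 genes in that order.

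In KO, 15 of the 16 genes that passed had not passed in WT. Htr1a (chr13:105443639-105448122, plus strand), the serotonin 1A receptor, had 12.9, 13.9, 12.1, 14 and 12.7 CPM in WT day, 12.6, 13.8, 13.6, 14.1 and 13.2 CPM in WT night, 12.5, 11.3, 11.4, 10.6 and 12.4 CPM in KO day and 16, 14.5, 14.7, 14.6 and 14.6 CPM in KO night. KO night was above all other libraries and KO_night 1 highest, while KO day was the lowest group and overlapped WT day. It rose 1.28-fold at night in KO, a log2 value of 0.35 ± 0.057 (SE, adjusted p = 0.022), with 0.04 ± 0.0571 (SE, adjusted p = 0.775) in WT and an interaction of 0.31 ± 0.0806 (SE, adjusted p = 0.0639). Adora1 (chr1:134199223-134235431, minus strand), the A1 adenosine receptor through which sleep pressure slows neurons, had 40.5, 35.5, 37.9, 41.1 and 37.7 CPM in WT day, 39.2, 40.2, 34.3, 40.2 and 38.5 CPM in WT night, 40.6, 34, 36.8, 38 and 38 CPM in KO day and 44.1, 48, 45.6, 48.2 and 44.7 CPM in KO night. KO night was again above every other library, and the other 3 groups overlapped. It rose in KO, with 0.30 ± 0.0526 (SE, adjusted p = 0.0326), against -0.00 ± 0.0528 (SE, adjusted p = 0.983) in WT and an interaction of 0.30 ± 0.0745 (SE, adjusted p = 0.0591).

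The time field puts KO_day 1 and 2 among the night libraries and KO_night 1 to 3 among the day ones, and gave interaction values of -0.08 for Htr1a and 0.02 for Adora1. Acot11 (a thioesterase, 0.29), Tyro3 (a receptor kinase, 0.25), Klc2 (a kinesin light chain, 0.22), Nsmf (a synapse-to-nucleus messenger, 0.28), Abhd8 (0.27) and Ogfod2 (0.34) also rose in KO, with WT values between -0.15 and 0.03. Npsr1, the neuropeptide S receptor, fell by 0.44 in KO (adjusted p = 0.0489), with 0.05 in WT. None of these was called in all 20 fits leaving out 1 library: Htr1a and Acot11 were called in 15, Adora1 in 13 and Abhd8 in 5. On the 14 libraries without a time conflict the KO list held 11 genes and shared only Dbp (adjusted p = 0.0241) with the 16. There the KO value of Htr1a was 0.34 (adjusted p = 0.124), that of Adora1 0.31 (0.124), that of Acot11 0.34 (0.0582), that of Npsr1 -0.34 (0.353) and that of Spag16 -0.50 (0.146), and the others named here did not pass either. The serotonin receptor list had 5 of 12 values above 0 and a median of -0.08. In the sleep-linked list, with 8 of 12 above 0 and a median of 0.04, Adora2a, an adenosine receptor abundant in the striatum, had an interaction of 1.12 (adjusted p = 0.0854) at about 1 CPM.

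Neuropeptides of the paraventricular nucleus had values above 0 without passing. Oxt (chr2:130576173-130577054, plus strand), oxytocin, had 192, 191, 271, 203 and 234 CPM in WT day, 171, 162, 155, 199 and 193 CPM in WT night, 234, 225, 250, 291 and 261 CPM in KO day and 249, 335, 274, 312 and 318 CPM in KO night. KO night was above WT night with no overlap, and the times overlapped within each genotype. Its night minus day values were -0.31 ± 0.0978 (SE, adjusted p = 0.148) in WT and 0.24 ± 0.0975 (SE, adjusted p = 0.208) in KO and its interaction 0.55 ± 0.138 (SE, adjusted p = 0.0598). With WT_day 3, its highest WT library, left out the interaction was 0.45 (adjusted p = 0.115). Crh (chr3:19693401-19695396, minus strand), corticotropin-releasing hormone, the head of the glucocorticoid axis, had 3.38, 3.66, 4.94, 4.89 and 4.96 CPM in WT day, 2.63, 3.53, 3.06, 2.68 and 3.12 CPM in WT night, 2.15, 2.95, 2.95, 3.25 and 4.34 CPM in KO day and 4.09, 4.26, 5.33, 3.74 and 4.08 CPM in KO night. KO night was above WT night with no overlap. Its values were -0.54 ± 0.151 (SE, adjusted p = 0.11) in WT, 0.45 ± 0.149 (SE, adjusted p = 0.138) in KO and 0.99 ± 0.212 (SE, adjusted p = 0.0576) for the interaction, and 0.06 with time from the time field.

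Avp, vasopressin, had 0.23, and the transcription factors of the same neurons had values below 0, Sim1 -0.23 and Otp -0.25. The oxytocin and vasopressin list had 5 of 10 above 0 and a median of 0.03. Of 24 feeding peptides and receptors 15 were above 0, 4 with an unadjusted p under 0.05, and 2 were below 0 by that p, with a median of 0.06. Among them the orexin receptors differed in sign, Hcrtr1 at 0.41 and Hcrtr2 at -0.24.

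**Figure D4:**
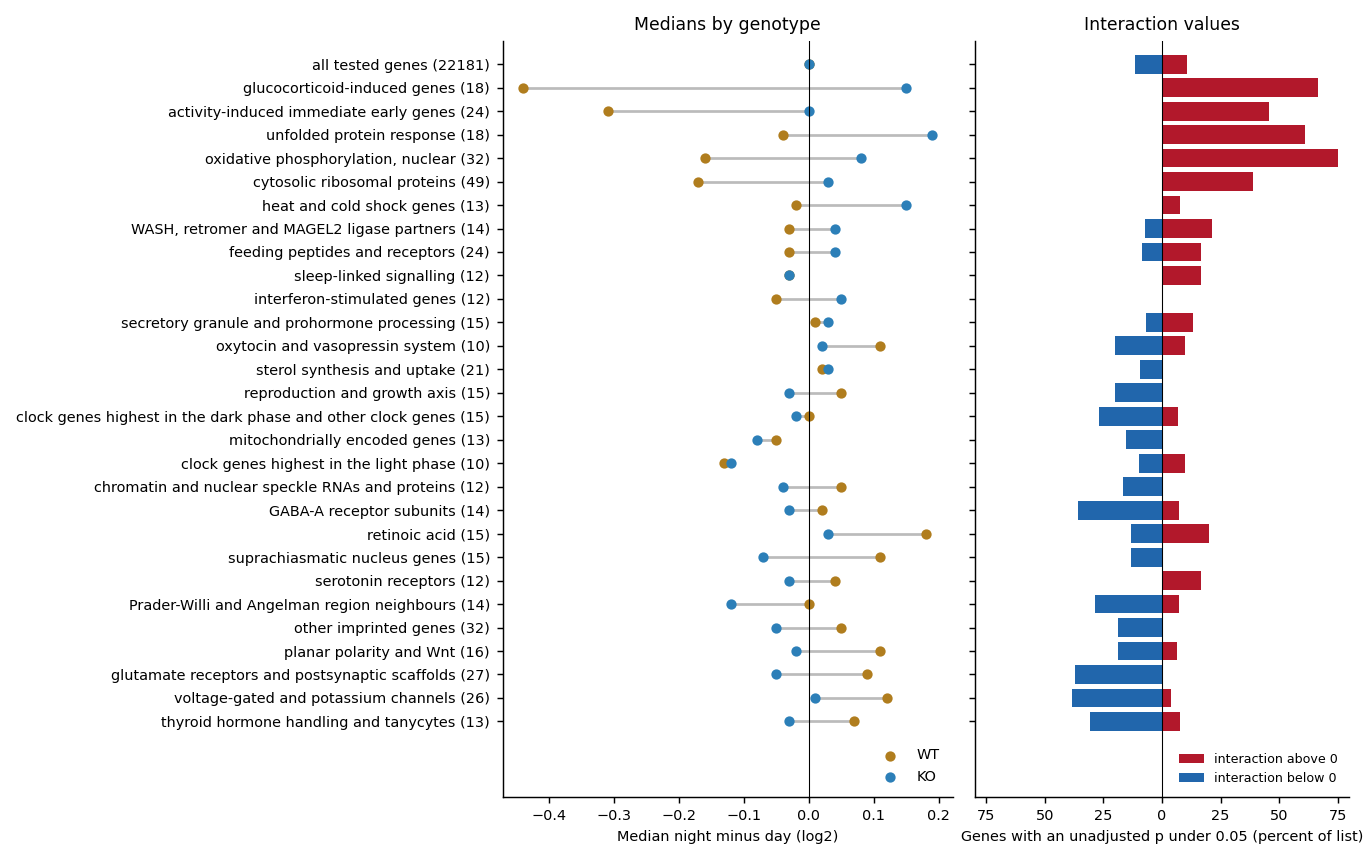
Left, median night minus day (log2) of each gene list in WT and KO, joined by a line, with the number of genes tested in brackets. Right, percent of the list with an unadjusted interaction p under 0.05, above 0 to the right and below 0 to the left. The glucocorticoid list has the widest gap, from -0.44 to 0.15, and all tested genes have medians of 0.00.

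The remaining lists are set against the background of 10.6% above 0 and 11.5% below 0 by unadjusted p. WASH, retromer and MAGEL2 ligase partners, the complex in which MAGEL2 works, had 9 of 14 above 0, with 3 above and 1 below by unadjusted p and a median of 0.06. Neighbours in the Prader-Willi and Angelman region had 4 of 14 above 0, with 1 above and 4 below by unadjusted p, and a median of -0.09, which was 0.03 after the length trend was removed. Ube3a among them had -0.23 and is overlapped by the antisense Snhg14. Other imprinted genes had 6 of 32 above 0, with 6 below by unadjusted p and a median of -0.09, and the lowest p belonged to Sgce, a sarcoglycan (-0.25, adjusted p = 0.0588). Thyroid hormone handling and tanycyte genes had a median of -0.17 with 4 of 13 below 0 by unadjusted p. Genes of sterol synthesis and uptake had 10 of 21 interaction values above 0, 2 with an unadjusted p under 0.05, both below 0, and a median of -0.00. Where time labels agree 0 of 21 were above 0 and the median was -0.10, and with time from the time field 0 of 21 and -0.13. In this list 1 member rose at night in WT, and 1 was called below 0 with the length trend removed. GABA-A subunits had 5 of 14 below 0 and 1 above 0 by unadjusted p, with a median of -0.05, and 1 of 14 below 0 with the length trend removed. Reproduction and growth genes (-0.02), secretory granule genes (0.03), nuclear speckle genes (-0.05) and interferon-stimulated genes (0.03) had medians near 0, the last with 0 of 12 by unadjusted p in either direction.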

How the data were processed

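The 20 hypothalamus libraries were made from total RNA after removal of ribosomal RNA and read from both ends, per the labels' protocols. The deposited files hold raw read counts per gene; the authors' pipeline names HISAT2, featureCounts and mm10, per the submitters' processing notes, and versions, annotation release and the strand setting of the counting are not given in the sources used here. Gene identifiers were matched to GENCODE M21 for 53706 of 53801 genes. Genes were kept with edgeR's filterByExpr at a minimum count of 10, scaled by TMM and fitted as 4 group means with edgeR 4.0.16 (R 4.3.3, quasi-likelihood test, Benjamini-Hochberg adjustment over 22181 genes). Alternatives used DESeq2 1.42.0, limma 3.58.1, other filters, other time labels, left-out libraries and a loess on gene length subtracted within each library. The common biological coefficient of variation was 0.0918. On simulated counts with planted interactions the fit called 68.7% of 67 genes at 1.5-fold and 19.4% of 67 at 1.25-fold, with 4 calls among unchanged genes. The changes were planted in KO night alone, in genes with higher counts, with noise independent between genes. No trend with gene span was included, so these shares are not the power for the real libraries. No 2 libraries of a group agree within sampling noise. Genes were named as the 20 with the smallest interaction p at a mean of at least 1 CPM without clone names, and up to 4 per list by interaction p; genes named for a WT or KO difference, and Fos, Sgk1, Per1, Nr1d2, Ciart, Hspa5, Creld2, Calr, Pdia6, Avp and the genes called after length correction, were chosen after their values were seen. Some genes that these rules name are not reported here. The comparison, its lists and its rules were chosen with earlier results of these data known. Lists are described by counts and medians, with no test of a list.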

Additional observations from a re-analysis of the deposited data

Results flagged for a closer look

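In each group of 5, the highest or lowest library was compared with its nearest neighbour for the 25 genes given in every library, the mitochondrial ribosomal RNA share, the contrast of long and short genes and the sums of the pituitary and meninges markers. The limit used is one that chance passes in about 1 group in 20, and 15 of the 116 groups checked passed it; the measures are not independent of each other. The library labelled WT_day 3 stood apart in its group for Ndn (31 CPM), Magel2 (2.16 CPM), Tsc22d3 (134 CPM) and Gpt2 (54 CPM). WT_day 2 stood apart for Lama4 (10.2 CPM) and Spag16 (33 CPM), and WT_night 3 for Adora1 (34.3 CPM). Among KO libraries, KO_day 1 stood apart for Plin4 (7.34 CPM), KO_day 2 for Slain2 (39.3 CPM), KO_night 1 for Htr1a (16 CPM) and KO_night 2 for Mt1 (93.1 CPM). KO_night 4 had a low share of mitochondrial ribosomal RNA (15%). Pituitary marker sums stood apart in WT_day 1 (889 CPM), WT_night 4 (203 CPM) and KO_night 2 (333 CPM).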

How the results depend on the processing

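The interaction count of 0 became 1166 with DESeq2, 2469 with voom, 105 with no filter, 63 at a mean of at least 1 CPM, 8 with the length trend removed, 1365 at an adjusted p under 0.1 and 1 with WT_night 1 to 3 left out. It stayed 0 with DESeq2's size factors, either set of time labels and KO_night 1 to 3 left out. The alternatives that leave out WT_night or KO_night 1 to 3, use 0.1 or combine the length trend with left-out libraries were chosen after seeing the data. In the order lost, gained, reversed and crossing, the classes held 173, 264, 7 and 722 genes with DESeq2, 512, 179, 5 and 1773 with voom, 25, 18, 0 and 62 with no filter, 19, 9, 0 and 35 at a mean of at least 1 CPM, 6, 0, 1 and 1 with the length trend removed, and 1, 0, 0 and 0 with WT_night 1 to 3 left out. Leaving out 1 library gave 0 to 1555 interaction calls, 0 to 115 lost (without KO_night 4), 0 to 148 gained (without KO_day 1) and 0 to 1421 crossing (without WT_night 4). For night against day in WT the 61 calls became 390 with DESeq2, 859 with voom, 108 with no filter, 98 at a mean of at least 1 CPM, 104 where time labels agree, 0 by the time field, 9 and 122 with WT_night or KO_night 1 to 3 left out, 11 and 141 with the length trend removed and WT_day 3 or the conflicting libraries left out, 244 at an adjusted p under 0.1, and 9 (without WT_day 5) to 179 (without KO_night 4) leaving out 1 library. For KO the 16 calls became, in that order, 563, 219, 70, 26, 11, 0, 138 and 59, 31 and 54, 441, and 0 to 328, with 87 once the length trend was removed. The cause was not tested.

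Replicate numbers are shared between groups, but same-numbered libraries did not deviate together (r from -0.17 to 0.30 over 30 pairs, 2 over 0.1, and 4 libraries closest to their own number), so the numbers are not taken as pairs. With a replicate block the interaction count was 0, the WT count 43 and the KO count 11.

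Signs of named genes turned as follows. With time from the time field the interaction was 0.22 for Dbp, -0.08 for Htr1a, 0.03 for Npsr1, -0.04 for Klc2, -0.01 for Hyou1, 0.30 for Ciart, 0.07 for Per1, 0.08 for Grm7 and 0.03 for Sgce, and the KO value -0.05 for Ogfod2, -0.01 for Htr1a, 0.08 for Npsr1 and -0.01 for Nsmf. With WT_night 1 to 3 left out it was 0.05 for Dbp, -0.09 for Fabp7, -0.02 for Avp and 0.08 for Ciart, and with KO_night 1 to 3 left out -0.05 for Fabp7, 0.01 for Per1 and -0.05 for Nr1d2. Where time labels agree it was -0.12 for Fabp7 and -0.08 for Nr1d2, and with the length trend also removed -0.20, -0.07 and, for Grm7, 0.03. Grm7 had 0.01 with the length trend removed, 0.01 with the block added and 0.02 with WT_day 3 left out. Leaving out 1 library gave -0.18 to 0.00 for Dbp (highest without KO_night 5), -0.43 to 0.02 for Gkn3 (KO_night 3), -0.10 to 0.03 for Ciart (WT_night 3), -0.13 to 0.00 for Per1 (WT_day 2) and -0.00 (KO_day 1) to 0.06 for Nr1d2. None of these genes had an adjusted interaction p under 0.05.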
